A study of Homo sapiens with 6 samples.

Results

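Introns above 1000 nt that can remain in polyadenylated RNA were followed after knockdown of SFSWAP, a nuclear protein with an RS domain that regulates splicing. Members were the rows of the retained intron table whose intron was longer than 1000 nt and whose junctions held 20 or more reads per library on average. There were 1143 such introns in 715 genes, out of 21158 introns in the table, where 1957 were above 1000 nt. Cells were HEK293A-TOA, a human embryonic kidney line. The siSFSWAP group received a mix of 2 siRNAs against SFSWAP, and the siNT group received a non-target siRNA, each at 40 nM for 5 days and with no inhibitor added. Each group has 3 biological replicates of this single line, and polyadenylated RNA was sequenced. Both groups are bulk populations. The 3 libraries of a group are called a, b and c here. The counts carry no replicate numbers, so libraries could not be paired between the groups.

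Most human introns are far longer than their exons and are removed soon after transcription, while a minority stays in the nuclear RNA as retained or detained introns. A detained intron keeps its transcript in the nucleus until the intron is spliced or the RNA is degraded, and intron 4 of OGT, which encodes the enzyme that adds O-GlcNAc to proteins, is regulated in this way. A long intron can also hold a cassette exon, so that the same outer splice sites are joined when that exon is skipped.

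The splice sites of the introns on which the results turn are given here, from GRCh38, because they fix which junctions were counted. In each 5′ splice site the first 3 bases are exonic and the capitals mark the first 6 intron bases, and in each 3′ splice site the capitals mark the terminal AG.
HNRNPA2B1 5′ splice site: tggGTAAGTagcttt
HNRNPA2B1 3′ splice site: agatactttttttttcctttggcAGgaa
HSPD1 5′ splice site: cagGTAAGGacttaa
HSPD1 3′ splice site: tacctaattctttgacttttcatAGgat
MATR3 5′ splice site: aatGTAGGAgtttga
MATR3 3′ splice site: atattttatgtcttcactttactAGggg
TRMU 5′ splice site: tagGTGACTgacggg
TRMU 3′ splice site: tgatgccagggtctctcccctacAGttt
OGT intron 4 5′ splice site: aagGTAGGTgtttga
OGT intron 4 3′ splice site: tcttctttcattaacccctcctaAGgca

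Inside the HSPD1, MATR3 and TRMU introns lies an exon of the canonical transcript, and these exons are shown because their junction reads are set beside the intron reads below. The last 3 exon bases are in capitals.
HSPD1 inner exon: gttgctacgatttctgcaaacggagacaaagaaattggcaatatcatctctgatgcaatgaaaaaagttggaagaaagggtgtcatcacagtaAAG
MATR3 inner exon: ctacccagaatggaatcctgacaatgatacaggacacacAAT
TRMU inner exon: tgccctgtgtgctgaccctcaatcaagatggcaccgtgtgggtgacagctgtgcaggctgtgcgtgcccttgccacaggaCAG
The HSPD1 exon has 96 nt and the MATR3 exon 42 nt, both multiples of 3, while the TRMU exon has 83 nt, which leaves a remainder of 2.

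The retained intron table held between 2767079 and 4450930 junction reads in the siSFSWAP libraries, against 2827762 to 7465949 in the siNT libraries. Members took 6.01% to 6.13% of these reads in siSFSWAP and 6.24% to 6.30% in siNT. The siNT library a was the deepest, and several results below change when it is left out. SFSWAP itself had 34.7, 34.7 and 21.4 CPM of spliced junction reads in siSFSWAP, against 79.8, 86.6 and 80.3 CPM in siNT (log2 change −1.46, SE 0.16, limma adjusted p 0.000336). Of 8 genes expected in this line, 4 were in the table of spliced reads, and their sum was 382 to 448 CPM in siSFSWAP and 442 to 536 CPM in siNT. PAX2, LHX1, NEFM and NEFL had no entry. Of 5 markers of other cells only COL1A1 was listed, below 1 CPM in every library. Spliced reads were taken from skipped exon events, and a gene without such an event has no entry at any expression. A missing entry therefore does not show that a gene was absent.

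Intron inclusion is the share of length-scaled junction reads that cross an exon-intron boundary rather than the spliced junction. An intron was tested when each form had 5 or more reads over the 6 libraries, and called when its adjusted p was at most 0.05 and mean inclusion changed by 20 percentage points or more. Among the 1143 members 832 could be tested, in 600 genes. Of these, 4 were called lower in siSFSWAP (HNRNPA2B1, HSPD1, ANAPC2 and MATR3) and 4 were called higher (CTSA, EIF3I, GMPPA and TRMU). Over the whole table of 10155 tested introns, 1.61% were called lower and 0.148% higher. Among the long introns the shares were 0.481% in each direction. By the adjusted p alone 7 long introns were lower and 9 higher, where the whole table had 2.86% lower and 0.364% higher. At an unadjusted p under 0.05 there were 38 lower and 73 higher long introns, or 4.57% and 8.77%, against 12.4% lower and 3.41% higher in the whole table. Every siSFSWAP library lay above every siNT library in 103 of the 832 long introns and below in 53, or 12.4% and 6.37%, and in the whole table these shares were 6.02% and 15.3%. The calls were sensitive to single libraries. Without siNT library a there were 8 lower and 13 higher calls, where the whole table had 498 lower and 44 higher of 9483 introns. Leaving out siSFSWAP library a, b or c gave 2, 2 and 1 lower calls and 0 higher calls each, with 90, 88 and 74 introns at an unadjusted p under 0.05. Without siNT library b there were 2 lower and 0 higher calls, with 101 introns at an unadjusted p under 0.05.

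**Figure D1:**
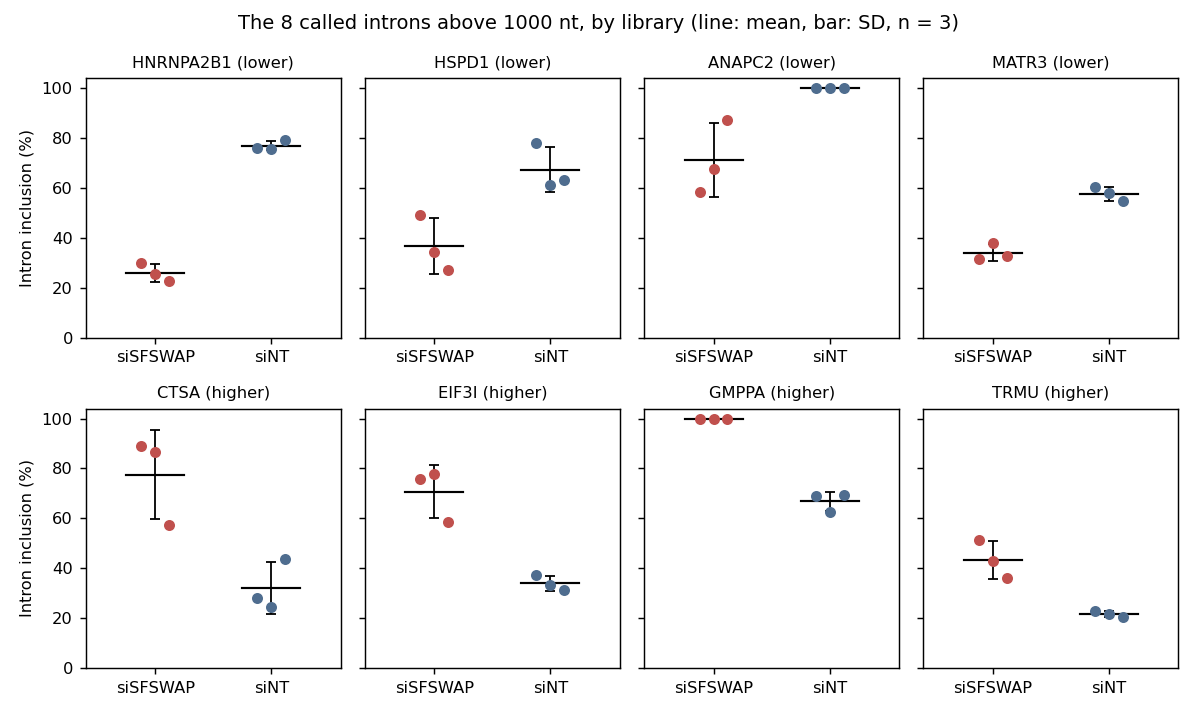
Intron inclusion in percent for the 8 called introns above 1000 nt. Each point is 1 library, lines are means and bars SD (n = 3), with siSFSWAP left of siNT. In all 8 introns the groups do not overlap, and the HNRNPA2B1 libraries stand at 22.9% to 30.0% in siSFSWAP and 75.8% to 79.2% in siNT.

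The largest fall was in HNRNPA2B1 (ENSG00000122566.22), which encodes an RNA-binding protein that takes part in splicing and RNA transport. The row spans 2034 nt of the 3′ UTR (chromosome 7, 26190461 to 26192494, minus strand), and 9 annotated exons of other transcripts lie inside it. Inclusion was 30.0%, 25.5% and 22.9% in the siSFSWAP group, against 76.1%, 75.8% and 79.2% in the siNT group. The groups were far apart and each was narrow, with means of 26.1% ± 3.62 and 77.0% ± 1.86 (SD, n = 3). The change of −50.9 percentage points had an adjusted p of 2.9e-08 and was called whichever library was left out. Behind it were 845 boundary and 1183 skipping reads in siSFSWAP, against 1033 and 157 in siNT.

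HSPD1 (ENSG00000144381.18), the mitochondrial chaperonin, had the next best-supported fall. Its row spans 1043 nt within the coding region (chromosome 2, 197494251 to 197495293, minus strand). Inclusion was 49.1%, 34.5% and 27.1% in siSFSWAP and 77.9%, 61.2% and 63.2% in siNT. All siSFSWAP libraries were below the lowest siNT library (36.9% ± 11.2 against 67.4% ± 9.14, adjusted p 0.00504). Without siSFSWAP library c the adjusted p was 0.0774, and the call held in the other 5 fits.

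MATR3 (ENSG00000015479.20), a nuclear matrix protein that binds RNA, had inclusion of 31.7%, 37.9% and 32.8% in siSFSWAP and 60.3%, 57.9% and 54.8% in siNT (chromosome 5, 139314737 to 139316075, plus strand, 1339 nt). The groups did not overlap (34.2% ± 3.31 against 57.7% ± 2.74, adjusted p 0.0321), but the call held in only 2 of 6 fits with a library left out. ANAPC2, a cullin-like subunit of the anaphase-promoting complex, was called on 27.2 reads per library. Its inclusion was 58.6%, 67.6% and 87.5% in siSFSWAP, while all siNT libraries were at 100%. No skipping read was seen among 79 reads in siNT, which allows a length-scaled skipping share of up to 7.06% (3 reads, counting error only). The ANAPC2 row (chromosome 9, 137175838 to 137177048, 1211 nt) is not an annotated intron, holds no annotated exon and kept its call in 1 of 6 such fits.

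Among the introns called higher, TRMU (ENSG00000100416.15) was the only one with a mean of 50 reads or more. TRMU encodes the enzyme that thiolates mitochondrial tRNAs. Its intron of 1253 nt (chromosome 22, 46355589 to 46356841, plus strand) had inclusion of 51.3%, 42.9% and 36.2% in siSFSWAP and 22.7%, 21.6% and 20.5% in siNT. The siNT libraries were tightly grouped and all below the siSFSWAP libraries (43.4% ± 7.57 against 21.6% ± 1.11, adjusted p 0.0292). The call held in 2 of 6 fits with a library left out. TRMU spliced reads over the whole gene were also lower, at 61.8 ± 5.70 CPM in siSFSWAP and 107 ± 31.0 CPM in siNT (log2 change −0.75, limma adjusted p 0.00932), where 15.6% of all genes were lower and 14.7% higher by this test.

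The other introns called higher had few reads. In CTSA, a lysosomal carboxypeptidase, inclusion was 88.9%, 86.7% and 57.1% in siSFSWAP and 28%, 24.3% and 43.8% in siNT, on a mean of 20 reads (adjusted p 0.0346). In EIF3I, a subunit of a translation initiation factor, it was 75.8%, 77.8% and 58.6% in siSFSWAP and 37.2%, 33.3% and 31.2% in siNT (38.2 reads, adjusted p 0.0292). GMPPA, a regulatory subunit of the enzyme that makes GDP-mannose, was at 100% in all siSFSWAP libraries and at 69.0%, 62.5% and 69.2% in siNT (25.2 reads, adjusted p 0.024). No skipping read was seen among 67 GMPPA reads in siSFSWAP, which allows a length-scaled skipping share of up to 8.22%. The calls of CTSA, EIF3I and GMPPA each ended without siSFSWAP library a, b or c. EIF3I and GMPPA also lost the call without siNT library b, and kept it in 2 of 6 and 1 of 5 fits. CTSA could be tested in only 3 fits with a library left out and was called in 0 of them. CTSA spliced reads over the whole gene were higher, at 97.3 ± 1.05 CPM in siSFSWAP and 64.4 ± 8.99 CPM in siNT (log2 change 0.60, limma adjusted p 0.0023).

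The called introns shared an annotation feature that the selection did not use. An exon of the gene's canonical transcript lay inside 6 of the 8 called introns (HSPD1, MATR3, CTSA, EIF3I, GMPPA and TRMU), or 75%, against 77 of the 824 uncalled ones, or 9.34%. Among all 16 introns past the adjusted p the count was 8, or 50%. Inclusion differs between these classes, with a median of 77.8% in the 83 tested introns that hold a canonical exon and 6.10% in the 569 introns of the canonical transcript, and a change of 20 points is out of reach for many introns of low inclusion in the lower direction. The HNRNPA2B1 row holds exons of other transcripts. None of the 8 is an intron of the canonical transcript, although 569 of the 832 tested introns are. Among these 569, the quasi-binomial test called 0 at both thresholds, 1 passed the adjusted p alone (HSF1, below), and 64 had an unadjusted p under 0.05. At that unadjusted p there were 111 of all 832 long introns and 1605 of all 10155 introns. With limma on the log2 odds none of the 569 passed and 57 were under 0.05, and limma called 0 of all 10155 introns. Without siNT library a, 3 of 534 introns of the canonical transcript were called lower and 1 higher, 43 passed the adjusted p and 93 had an unadjusted p under 0.05. In that fit the whole table had 498 lower and 44 higher calls of 9483, with 2524 introns at an unadjusted p under 0.05. The groups of introns are described here and were not tested against each other.

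Reads on the exon inside give another readout on the same introns, although the skipping reads are shared. Of the 832 introns, 280 had exon events with the same outer splice sites, and in all 576 such events the skipping counts were those of the intron row. A tested exon was found for 7 of the 8 called introns. In each of the 7 the exon changed in the same direction as the intron and passed the adjusted p in the exon table. These introns were picked by their calls and the shared skipping reads feed into both, so the exon results are not independent of the calls. The HNRNPA2B1 exon with most reads had inclusion of 74.4%, 71.1% and 65.0% in siSFSWAP and 96.4%, 96.4% and 96.5% in siNT (adjusted p 4.69e-13). The TRMU exon was included at 72.3%, 64.3% and 72.6% in siSFSWAP and at 58.2%, 35.5% and 44.2% in siNT (adjusted p 0.0172). Exon inclusion was lower in siSFSWAP for HSPD1 (92.6% ± 3.38 against 97.9% ± 0.997) and for MATR3 (91.3% ± 1.37 against 97.0% ± 0.882). It was higher for CTSA (98.7% ± 1.01 against 89.0% ± 3.74), EIF3I (99.1% ± 0.337 against 96.0% ± 1.08) and GMPPA (100% against 93.8% ± 1.63).

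When boundary reads were taken as a share of boundary, skipping and exon junction reads together, the long introns with an inner exon looked different. This calculation was added after the calls were seen. Boundary reads at the outer splice sites can come from the whole row or from the smaller introns beside an inner exon, which cannot be told apart. In HSPD1 the boundary share was 3.64%, 3.88% and 3.81% in siSFSWAP and 3.22%, 3.70% and 4.64% in siNT, so the groups overlapped, while the skipping share was 7.13% ± 3.25 in siSFSWAP and 1.99% ± 0.947 in siNT. In HNRNPA2B1 the boundary share was 9.44% ± 0.447 in siSFSWAP and 10.7% ± 0.830 in siNT, against skipping shares of 27.0% ± 4.37 and 3.17% ± 0.101. In TRMU the boundary share was 19.1% ± 4.91 in siSFSWAP and 12.9% ± 2.08 in siNT, and skipping fell to 24.5% ± 3.40 in siSFSWAP, against 46.9% ± 8.90 in siNT. Over the 7 called introns the boundary share differed by between 0.0791 and 6.20 percentage points, by under 5 points in 5 of them, and the groups did not overlap only in HNRNPA2B1.

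**Figure D2:**
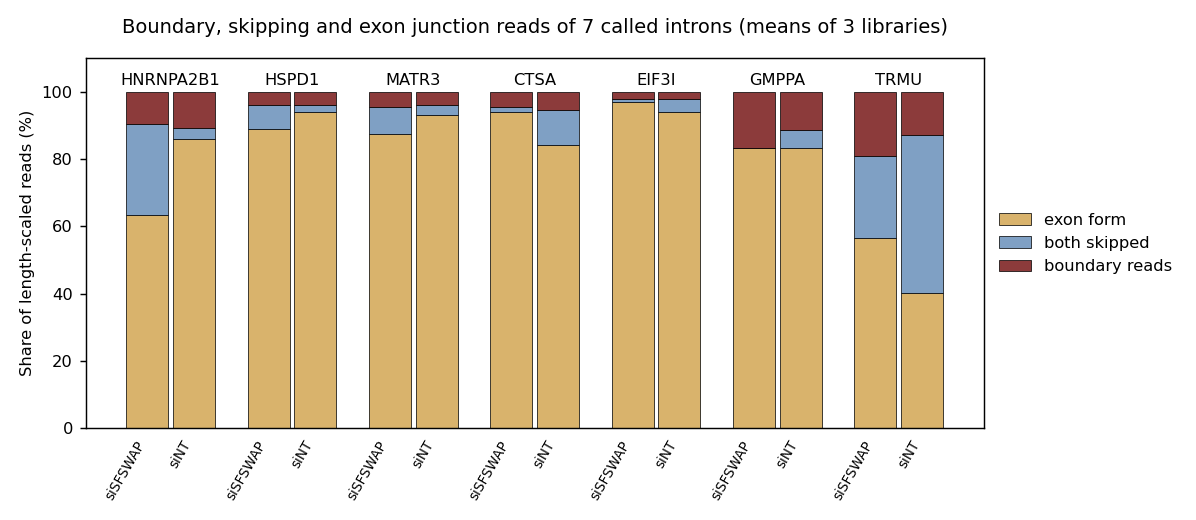
Share of length-scaled reads in percent that cross an exon-intron boundary, join the outer splice sites (both skipped) or join the inner exon, for the 7 called introns with a tested inner exon. Bars are means of 3 libraries and siSFSWAP stands left of siNT. The skipping share of HNRNPA2B1 is 27.0% in siSFSWAP and 3.17% in siNT, while its boundary share is 9.44% and 10.7% in the same order.

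Introns that share a splice site with the long row and lie inside it were also tested for 6 of the 8 called rows, on 1 side only in MATR3 and not in TRMU or ANAPC2. They use their own skipping junctions. Boundary reads are shared with the long row at the common splice site. Of 13 tested introns that lie inside a called row and share a splice site with it, 0 were called by the quasi-binomial test, 1 passed the adjusted p and 2 had an unadjusted p under 0.05. In 12 of the 13 the change was under 3 percentage points. In HSPD1 the introns flanking the inner exon were included at 4.08% ± 0.353 and 4.18% ± 0.507 in siSFSWAP, against 3.98% ± 0.519 and 4.07% ± 0.528 in siNT. In EIF3I the upstream intron of 1695 nt, itself a member, had 3.30% ± 0.545 in siSFSWAP and 2.91% ± 0.640 in siNT (adjusted p 0.777). In GMPPA the upstream intron of 1014 nt, also a member, had 10.3% ± 1.87 in siSFSWAP and 7.72% ± 2.33 in siNT (adjusted p 0.898). The exception was an intron of 532 nt at the downstream end of the HNRNPA2B1 row, included at 61.6% ± 0.581 in siSFSWAP and 43.0% ± 5.50 in siNT (adjusted p 0.0478), which is the opposite direction to the full row.

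Over all long introns, 194 had a tested exon event. The exon with most reads was called higher in 5 of them and lower in 3, or 2.58% and 1.55%, where the whole exon table had 1.44% higher and 0.655% lower calls. By the adjusted p alone 17 were higher and 10 lower, against 3.25% and 2.17% of the whole exon table. Exon and intron changed in the same direction in 135 of the 194, a count that the shared skipping reads feed into. Exons called higher without an intron call were in ADA, an enzyme of purine breakdown (75% ± 12 in siSFSWAP and 32.6% ± 15.1 in siNT), DENND5A, EXOSC2 and SBF1. An exon called lower was in FAS, the death receptor whose transmembrane exon is a known cassette exon (48.4% ± 1.95 against 73.6% ± 5.50). These genes were named after their values were seen. The ADA intron, by contrast, had a change of −4.21 percentage points and no call.

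**Figure D3:**
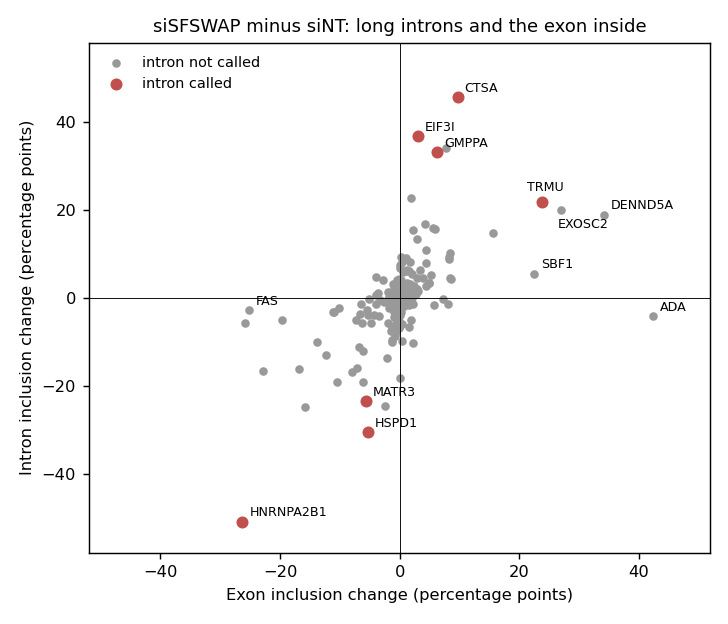
Change in exon inclusion (x axis, percentage points, siSFSWAP minus siNT) against change in inclusion of the surrounding long intron (y axis, percentage points) for 194 introns with a tested exon event. Red points are the 7 called introns, which lie in the quadrants where both changes have the same sign, and ADA lies at 42.4 and −4.21 points.

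Further introns passed the adjusted p without a change of 20 points. Lower inclusion was seen in PRPF4B, a kinase of the spliceosome (79.2% ± 6.83 in siSFSWAP and 98.9% ± 1.2 in siNT, adjusted p 0.0124). HSF1, the heat shock transcription factor, had 10.5%, 15.7% and 12.9% in siSFSWAP and 19.9%, 26.1% and 29.2% in siNT. The HSF1 groups did not overlap (adjusted p 0.0299), and this row, intron 4, was the only intron of a canonical transcript among the 16 past the adjusted p. With a library left out the adjusted p held in 1 of 6 fits for HSF1 and 2 for PRPF4B, and PRPF4B was called without siNT library c, at −20.3 points.

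Higher inclusion at the same level was seen in EXOSC2, a subunit of the RNA exosome (38.3% ± 5.45 in siSFSWAP and 18.3% ± 7.68 in siNT, adjusted p 0.0394). Its change of 19.98 points lay just under the threshold, and without siNT library a it was 24.4 points and called. HNRNPH3, an RNA-binding protein related to splicing regulators, had 47.8% ± 4.71 in siSFSWAP and 32.1% ± 1.42 in siNT (adjusted p 0.031). The EXOSC2 and HNRNPH3 rows each hold 1 exon of the canonical transcript, so their skipping reads also pass over that exon. The small ribosomal subunit genes RPS24 and RPS16 had 94.1% ± 0.829 and 96.3% ± 0.514 in siSFSWAP, against 78.8% ± 1.9 and 93.8% ± 0.442 in siNT (adjusted p 0.0477 and 0.0331). UFD1, a factor in the degradation of ubiquitinated proteins, had 99% ± 0.968 in siSFSWAP and 83.9% ± 10.3 in siNT (adjusted p 0.0415), and a lncRNA gene lies inside its intron of 4057 nt. UFD1 was called without siNT library a, at 20.6 points. The RPS24, RPS16 and UFD1 rows are not introns of the canonical transcript, and their skipping reads were a small part of the total. RPS16 had 188 skipping and 9797 boundary reads in siSFSWAP, against 388 and 11594 in siNT. With each library left out in turn, the adjusted p was passed in 1 of 6 fits by EXOSC2, UFD1 and RPS24 and in 2 of 6 by RPS16 and HNRNPH3. When only introns with a mean of 50 reads or more were tested, it was 0.0568 for EXOSC2, 0.0596 for UFD1 and 0.0535 for RPS24.

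Intron 4 of OGT was a member, at 3271 nt (chromosome X, 71544636 to 71547906, plus strand, coding region). Its inclusion was 26.6%, 27.2% and 28.9% in siSFSWAP and 30.8%, 32.4% and 42.8% in siNT. The highest siSFSWAP value was below the lowest siNT value, with means of 27.6% ± 1.19 and 35.3% ± 6.49, but the siNT spread was of the size of the difference. The log2 odds change was −0.41 with a 95% interval of −0.86 to 0.03 (adjusted p 0.362). Without siNT library a the adjusted p was 0.02 with a change of −10.01 percentage points, and leaving out siNT library c gave −4.02. With a library other than siNT library a left out the adjusted p was 0.494 to 0.685. Reads on a 146 nt exon inside the intron numbered 4 in siSFSWAP and 12 in siNT, too few to set apart (adjusted p 0.535). The 4 other tested forms of this exon, which share its junctions in part, had 0 to 3 reads in siSFSWAP and 6 to 9 in siNT (adjusted p 0.210 to 0.742). OGT spliced reads were 211 ± 19.0 CPM in siSFSWAP and 213 ± 15.9 CPM in siNT (log2 change −0.01, limma adjusted p 0.918).

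**Figure D4:**
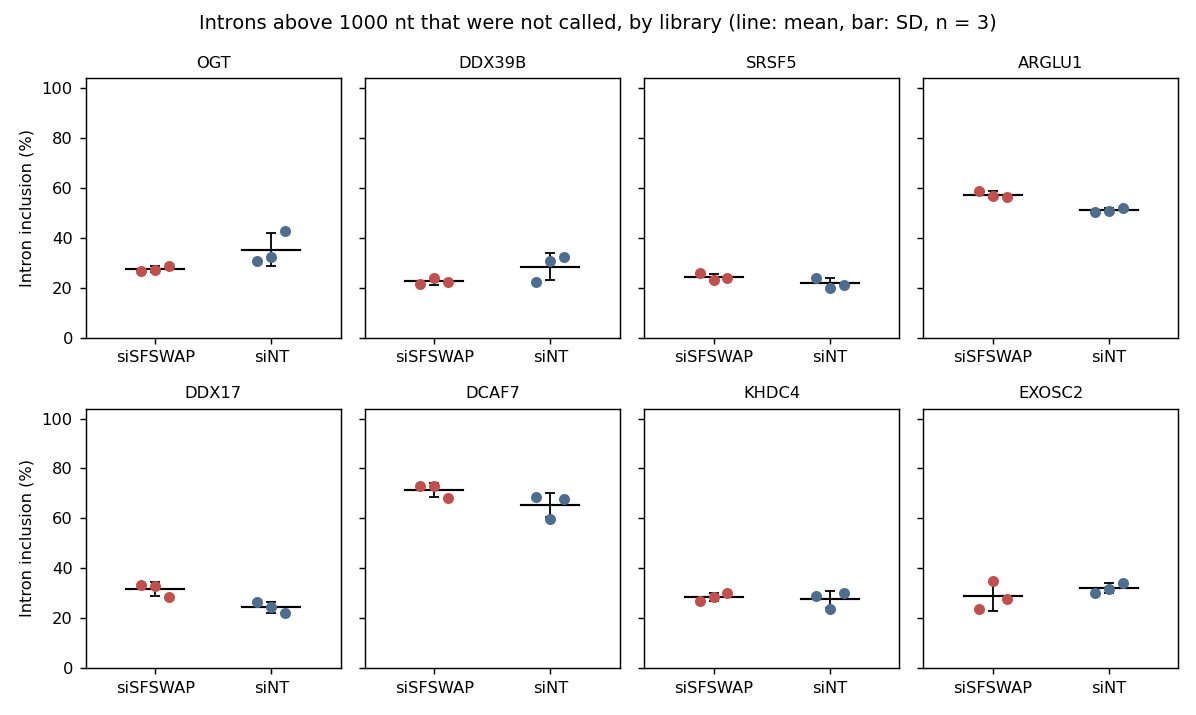
Intron inclusion in percent for OGT intron 4 and for 7 well-read introns above 1000 nt that were not called. Each point is 1 library, lines are means and bars SD (n = 3), with siSFSWAP left of siNT. OGT stands at 26.6% to 28.9% in siSFSWAP and 30.8% to 42.8% in siNT, and ARGLU1 at 56.4% to 58.9% and 50.5% to 52.2% in the same order.

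Other abundant introns with intermediate inclusion were not called. Intron 6 of DDX39B, an RNA helicase of splicing and mRNA export, had the most reads of these, at 1622 per library. Its inclusion was 21.5%, 24.1% and 22.2% in siSFSWAP and 22.4%, 30.9% and 32.3% in siNT, and the groups overlapped at siNT library a (adjusted p 0.296). When that library was left out, DDX39B differed by −8.96 points with an adjusted p of 1.79e-11. With another library left out the DDX39B adjusted p was 0.394 to 0.666. Intron 2 of ARGLU1, a splicing and transcription cofactor, pointed the other way, with 57.4% ± 1.30 in siSFSWAP and 51.2% ± 0.864 in siNT (log2 odds change 0.39, 95% interval 0.10 to 0.68, adjusted p 0.147). Intron 11 of the helicase gene DDX17 had 31.6% ± 2.71 in siSFSWAP and 24.3% ± 2.15 in siNT (adjusted p 0.105). The DDX17 adjusted p was 0.00457 without siNT library a and 0.171 to 0.461 with another library left out. The ARGLU1 and DDX17 groups did not overlap. The SR protein gene SRSF5 (24.3% ± 1.45 in siSFSWAP and 21.8% ± 2.08 in siNT), DCAF7 (71.4% ± 2.77 and 65.4% ± 4.78) and KHDC4 (28.5% ± 1.56 and 27.5% ± 3.32) had overlapping groups, as did the EXOSC2 intron from 130700936 on chromosome 9 (28.7% ± 5.84 and 32% ± 1.97). Of the 3 longest tested introns, KDM6A (6339 nt) is in a histone demethylase gene, CTSC (6740 nt) in a lysosomal protease gene and TMEM161B-DT (11456 nt) in a lncRNA gene. Their inclusion was 15.9% ± 5.88, 9.80% ± 1.13 and 19.8% ± 4.55 in siSFSWAP, against 17.5% ± 5.10, 11.6% ± 4.64 and 13.5% ± 8.80 in siNT, and none was called.

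The long introns were next counted by groups of RNA processing genes. For comparison, 111 of all 832 tested long introns had an unadjusted p under 0.05 and 16 passed the adjusted p. SR-related and speckle protein genes had 19 tested introns in 12 genes, of which 0 passed the adjusted p by the quasi-binomial test and 4 had an unadjusted p under 0.05. Their median log2 odds change was −0.03, with 9 of 19 above 0, where all tested long introns had a median of 0.15 and 57.9% above 0. RSRP1 intron 3 had 45.6% ± 12.5 in siSFSWAP and 61.8% ± 11.4 in siNT, while RSRC2 intron 3 had 28.3% ± 3.26 and 18.2% ± 4.07 in the same order. The RSRC2 adjusted p was 0.141. It passed in 1 of 6 fits with a library left out, at 0.000162 without siNT library a. In RBM5, an RNA-binding splicing regulator, intron 6 had 58.7% ± 11.5 in siSFSWAP and 38.7% ± 12.1 in siNT (adjusted p 0.298). The splicing kinases had 6 tested introns, of which PRPF4B was lower. CLK4 intron 3 had 23.7% ± 4.48 in siSFSWAP and 10.8% ± 3.84 in siNT with no overlap (adjusted p 0.127). The CLK4 adjusted p was 0.0024 without siNT library a and 0.271 to 0.363 with another library left out. A CLK1 intron spread from 44.7% to 93.8% in siSFSWAP. The hnRNP genes had 9 tested introns, with HNRNPA2B1 lower and HNRNPH3 higher, and HNRNPU was near 3.04% ± 0.305 in siSFSWAP and 2.5% ± 0.514 in siNT.

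Core spliceosome genes had 6 tested introns and no change past the adjusted p. Intron 4 of SF3B1, a core spliceosome protein, was at 2.52% ± 0.369 in siSFSWAP and 3.15% ± 0.762 in siNT, and a row in SNRPB, a protein of the Sm ring, was at 56.9% ± 11.2 and 44.6% ± 3.49 in the same order. Genes of mRNA export and the nuclear exosome had 14 tested introns with EXOSC2 alone past the adjusted p. Intron 10 of NXF1, the mRNA export receptor, had 23.6% ± 3.53 in siSFSWAP and 19.1% ± 3.01 in siNT. EXOSC9 intron 10 had 17.1% ± 2.93 in siSFSWAP and 10.7% ± 0.455 in siNT (adjusted p 0.218). The RNA helicases had 14 tested introns and none past the adjusted p, with 4 at an unadjusted p under 0.05. Of all 832 tested long introns 111 were under 0.05. DDX5 intron 11 had 13.6% ± 1.81 in siSFSWAP and 16.2% ± 3.85 in siNT. The 9 tested introns of snoRNA host genes had no change past the adjusted p, and 7 were above 0, where 57.9% of all tested long introns were above 0. SNHG15 had 14.4% ± 4.24 in siSFSWAP and 9.87% ± 2.15 in siNT. A row of NCL, which encodes nucleolin, was at 100% in every siSFSWAP library and at 93.9%, 79.4% and 53.5% in siNT (adjusted p 0.122). This row holds 2 exons of the canonical transcript. It was called higher without siNT library a, while the adjusted p was 0.163 to 0.421 with another library left out. No skipping read was seen among 135 NCL reads in siSFSWAP, which allows a share of up to 4.26%.

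Outside RNA processing, the cytosolic ribosomal protein genes had 21 tested introns in 14 genes, and 2 of the introns were higher by the adjusted p (RPS16 and RPS24). By comparison, 9 of all 832 tested long introns and 0.364% of the whole table were higher by the adjusted p. Among the 21 introns, 4 were at an unadjusted p under 0.05. Intron 3 of RPL28 was at 11.5% ± 0.858 in siSFSWAP and 13.0% ± 1.37 in siNT (adjusted p 0.103). Mitochondrial ribosomal protein genes had 5 tested introns. A row labelled MRPS5 belongs to the gene entry ENSG00000289685.1 and is its intron 12 of 16, in the 3′ UTR. It was at 18.4% ± 3.36 in siSFSWAP and 13.5% ± 0.736 in siNT. The chromatin modifiers had 25 tested introns in 11 genes, 18 of them above 0 with a median log2 odds change of 0.23, and none passed the adjusted p while 3 were at an unadjusted p under 0.05. Of all 832 tested long introns 111 were under 0.05, and 57.9% were above 0. In SMARCB1, a subunit of the SWI/SNF remodeller, inclusion was 26.9% ± 1.6 in siSFSWAP and 40.2% ± 5.80 in siNT (adjusted p 0.0991). In the histone demethylase gene KDM1A it was 99.3% ± 0.687 in siSFSWAP and 93.7% ± 3.59 in siNT. DNA repair genes had 7 tested introns, with FANCL intron 8 at 23.5% ± 1.22 in siSFSWAP and 14.3% ± 1.92 in siNT (adjusted p 0.114). The FANCL adjusted p was 0.0326 without siNT library a and 0.240 to 0.299 with another library left out. FANCI intron 16 was at 32.2% ± 10.9 in siSFSWAP and 20.3% ± 2.74 in siNT. Aminoacyl-tRNA synthetase genes had 22 tested introns in 10 genes and 1 at an unadjusted p under 0.05, IARS1 intron 4 at 5.22% ± 2.06 in siSFSWAP and 1.75% ± 0.520 in siNT (adjusted p 0.122). IARS1 spliced reads were lower over the gene, at 179 ± 25.5 CPM in siSFSWAP and 361 ± 9.86 CPM in siNT (limma adjusted p 0.000287). Of 5 tested introns in zinc finger genes 1 was above 0, and ZNF197 had 64.2% ± 11.7 in siSFSWAP and 89.0% ± 13.9 in siNT.

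The long introns differed from shorter ones in the direction of the small changes. The median log2 odds change was 0.15 in the 832 introns above 1000 nt, 0.01 in 1781 introns of 301 to 1000 nt, −0.20 in 4900 introns of 101 to 300 nt and −0.24 in 2642 introns up to 100 nt. Over all tested introns it was −0.14. Median inclusion of the long introns was 10.5%, 12% and 10.9% in the siSFSWAP libraries and 9.85%, 10.6% and 11.1% in the siNT libraries, which overlapped. Across both groups it rose in order of falling junction reads. It went from 9.85% in siNT library a (7465949 reads) to 12% in siSFSWAP library b (2767079 reads). A part of depth in the change was not tested. Taken intron by intron, the median difference between a siSFSWAP and a siNT library was above 0 in all 9 pairs of libraries, from 0.07 to 0.24 on the log2 odds scale, while libraries of the same group differed by up to 0.09. The pairs reuse the same libraries, so they are not independent. For introns of 301 to 1000 nt the pairs ranged from −0.20 to 0.20, with 4 above 0 and 5 below. In that class libraries of the same group differed by up to 0.22. For introns up to 300 nt the pairs ranged from −0.58 to 0.07 and libraries of the same group differed by up to 0.52, with siNT library a apart from the other siNT libraries. The median of the long introns was 0.11 to 0.19 whichever library was left out. These are descriptions of introns measured in the same libraries, with no test of the classes against each other.

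**Figure D5:**
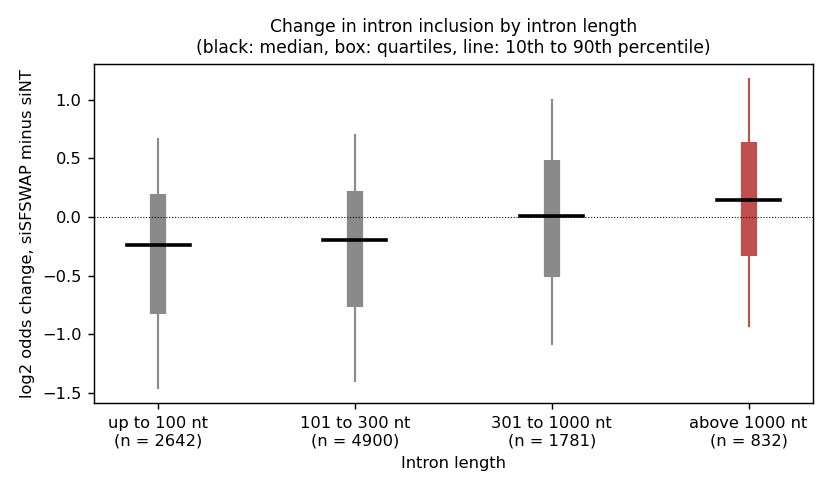
Change in intron inclusion as log2 odds (y axis, siSFSWAP minus siNT) by intron length (x axis). Black lines are medians, boxes quartiles and thin lines the 10th to 90th percentiles over introns. The median is 0.15 above 1000 nt and −0.24 up to 100 nt, and the quartiles overlap in all classes.

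Length did not separate the long introns further until the longest. The median log2 odds change was 0.15 at 1001 to 1500 nt, 0.16 at 1501 to 2500 nt, 0.16 at 2501 to 4000 nt and −0.11 in the 42 introns above 4000 nt. It was 0.29 in the 239 long introns with a mean inclusion up to 5%, against −0.01 in 3421 shorter introns of the same inclusion. At 20% to 50% inclusion it was 0.01 in 87 long introns and −0.51 in 991 shorter ones. From 50% to 80% it was 0.18 in 64 long and −0.45 in 516 shorter introns. At higher inclusion the classes were closer, at −0.23 in 122 long and −0.19 in 690 shorter introns from 80% to 95%, and at −0.28 in 45 long and −0.25 in 523 shorter introns above 95%. In the 566 long introns with no annotated exon inside it was 0.17, in the 183 with an exon of another transcript 0.07, and in the 83 with a canonical exon −0.06. Long introns of the 3′ UTR (31) had a median of −0.19 and those of the coding region (758) 0.15.

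Long introns were poorer in G and C, with a median GC content of 42.3% against 56.6% in tested introns up to 1000 nt and 61.7% in those up to 100 nt. Among introns below 40% GC the median log2 odds change was 0.13 in 337 long and 0.14 in 1814 shorter introns. At 40% to 50% GC it was 0.20 in 293 long and 0.00 in 1359 shorter introns. At 50% to 60% GC it was 0.12 in 162 long and −0.18 in 2444 shorter introns. Above 60% GC it was −0.28 in 40 long and −0.43 in 3706 shorter introns. Length and GC content moved with the change together, and their parts in it were not tested. In 285 genes with tested introns both above 1000 nt and up to 300 nt, the long introns had the higher gene median in 152, or 53.3%, with a median of 0.05 for long and −0.03 for short introns.

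GT and AG were the terminal bases of 98.2% of the long introns, and 768 of 832 are annotated introns. Splice site scores, sums of log2 base frequencies relative to equal use at introns of canonical transcripts, had medians of 7.41 for the 5′ and 8.93 for the 3′ splice site, against 7.91 and 8.10 in introns up to 1000 nt. A 5′ splice site of the minor spliceosome (ATATCCTT or GTATCCTT as the first intron bases, sense strand) was found in 3 of the 832 (0.361%), against 0.384% of all tested introns and 0.256% of canonical introns. Among these were ATG3 intron 11 and PFDN5 intron 3, and the letters alone do not show which spliceosome removes them. ATG3 had 10.1% ± 4.06 in siSFSWAP and 5.44% ± 2.25 in siNT, and PFDN5 0.728% ± 0.134 and 0.926% ± 0.206 in the same order. Other genes lay inside 25 of the tested long introns.

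The 311 members that could not be tested were set by the reads of one form. Skipping reads were under 5 over the 6 libraries in 307 of them and boundary reads in 4, and only 66 of the 311 are annotated introns. Near the limits of the selection, UBE2D3 at 1001 nt, UBXN11 at 1002 nt and POLG at 1004 nt were just inside by length, with changes of 0.278, −9.32 and −11.3 percentage points. The introns of NEU3, NAALAD2 and NAA60 at 1000 nt were just outside, with changes of −2.02, −2.99 and −0.565 points. By reads, POMGNT1, DHX36 and CTSA were just inside at a mean of 20, with changes of −9.64, −8.42 and 45.5 points, and SNHG11, CLK1 and SLC1A3 just outside at 19.8, with changes of 3.05, 4.76 and 2.78 points. Of the 1143 members, 465 share a splice site with another member, so they are not independent of each other.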

How the data were processed

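The authors trimmed reads with cutadapt 1.9.1, aligned them to GRCh38 with STAR 2.7 and GENCODE 40, and ran rMATS. Deposited tables of retained introns and skipped exons hold whole-number junction counts, inclusion fractions and effective lengths, each cell listing the 3 libraries of a group. The tables number the groups, and siNT was identified from the paper's definition of the difference. The deposited p-values, q-values (FDR) and difference scores are the authors' own comparison and were not used. The counts were read as deposited, without normalization.

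Inclusion was computed from counts divided by effective length. A quasi-binomial F test compared the groups for every event, two-sided, with dispersion moderated across events in limma 3.58.1 (R 4.3.3) with a trend on reads and a floor of 1, and Benjamini-Hochberg adjustment over all 10155 introns or 48100 exon events. Log2 odds changes used 0.5 added to the summed counts. Changes are siSFSWAP minus siNT. Spliced reads per gene were summed over 1 event per exon, scaled to CPM (offset 0.5), and compared with limma over 10744 genes. They change with splicing as well as RNA amount, and in bulk RNA fewer cells and less RNA per cell cannot be told apart. The quasi-binomial test was also run on simulated counts drawn from its own fitted dispersions. Changes were placed only in introns of intermediate inclusion, so this does not check the calls made on the real counts. Annotation and sequence were GENCODE 44 and GRCh38. The quasi-binomial p-values rest on read counts and on a dispersion moderated across events, so they measure an intron's own spread between libraries only in part. The study describes the replicates as cells passaged at different times.

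The members, the gene lists and the rule for naming introns were chosen with earlier results of these data known. Named were the called introns with 50 or more reads, the 8 uncalled introns with most reads at 20% to 80% inclusion, the 3 longest, genes the study discusses, and up to 4 per gene list by change over its standard error. The 4 called introns under 50 reads, introns past the adjusted p alone, minor-type introns and exon genes were added after their values were seen. Lists with 4 or fewer tested introns are not described, apart from OGT. Alternatives were a higher read minimum, no minimum per form, a smaller change, limma on log2 odds, another pseudocount, 1 row per intron and each library left out. Dispersion from the deviance was added after seeing the data. Some introns that meet these rules are not reported here.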

Additional observations from a re-analysis of the deposited data

How the results depend on the processing

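Called long introns changed with the setting. With 50 or more reads per library, 3 were lower and 1 higher, where the whole table had 107 lower and 7 higher of 7506. With a change of 10 points in place of 20, 7 were lower and 8 higher, where the whole table had 248 lower and 22 higher of 10155. With limma on the log2 odds, 0 were lower and 0 higher, with 109 at an unadjusted p under 0.05, and the lowest adjusted p among the 8 called introns was 0.0602. Over all 10155 introns limma also called 0 lower and 0 higher, with 1671 at an unadjusted p under 0.05. When each library was left out in turn the count lay between 1 and 8 for lower and between 0 and 13 for higher calls. The whole table then had between 14 and 498 lower and between 1 and 44 higher calls. Among the long introns there were 2, 2 and 1 lower calls without siSFSWAP library a, b or c, and 2 without siNT library b. All libraries but siNT library c moved the lower count by more than 1.5 times, with 8 lower calls without siNT library a. Without a minimum per form, with 1 row per intron or with dispersion from the deviance the counts were 4 and 4, and no intron appeared in more than 1 row. The median log2 odds change was 0.11 to 0.19 when a library was left out, and 0.12 to 0.17 under the other settings. In 8 of the 832 introns a form was at 0 in a group, and without them the median was 0.15. SFSWAP spliced reads had a log2 change between −1.58 and −1.23 with a library left out and −1.47 with TMM factors. HNRNPA2B1 kept its call in all 6 fits with a library left out.

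The direction turned in CLK1, CTSC, KDM6A and KHDC4 when a library was left out. The change lay between −2.06 and 22.5 percentage points in CLK1, between −3.17 and 0.919 in CTSC, between −5.08 and 1.13 in KDM6A (0.163 without siSFSWAP library c) and between −0.896 and 2.26 in KHDC4. No paired analysis was possible because the columns carry no replicate numbers. A planned count model with a form-by-group interaction was not run. Depth limits the introns under 50 reads, where few reads of a form decide the value.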
